A study of Mus musculus with 7 samples.

Results

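The ABCA transporters are a family of membrane proteins, and 10 of their genes are described here: Abca12, Abca1, Abca2, Abca3, Abca5, Abca7, Abca8a, Abca8b, Abca9 and Abca13. They were taken by gene symbol from a table of 34245 genes, and each symbol matched 1 entry. Whole pancreatic islets of 8-week-old C57BL/6J mice were profiled by RNA sequencing in 2 control mice and 5 knockout (KO) mice. Every mouse carried Rip1-Cre, a recombinase driven by an insulin gene promoter and so directed at beta cells. In the KO mice the Cre had turned a floxed Abca12 allele into the deleted form, tm1d. Control 1 had intact Abca12 alleles, and Control 2 was heterozygous for the floxed allele. Each control genotype is therefore 1 mouse. Since Control 2 also carried the Cre, its floxed allele may be deleted in its beta cells, which was not tested. The islet cells that do not make insulin keep their Abca12 alleles in all groups. The question was which family members islets express, and whether any of them stood at a different level when Abca12 was deleted.

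ABCA proteins are long single-chain transporters that use ATP to move lipids across or out of membranes. ABCA1 exports cholesterol and phospholipid to apolipoprotein A-I, the first step in making high-density lipoprotein, and its gene is a textbook target of the oxysterol receptors LXR. In mouse beta cells, loss of Abca1 is known to raise cellular cholesterol and to impair insulin secretion. ABCA12 is best known from the skin, where it loads glucosylceramide into the lamellar granules of keratinocytes, and its loss in humans causes harlequin ichthyosis.

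The libraries held 23922958 to 43117317 reads as implied by the smallest step of their values, and 13335960 to 24590888 of these fell in listed genes. Levels are given as RPM, reads per 1000000 of the implied depth. Markers of beta cells summed to 70004 to 77096 RPM in controls and 59671 to 88163 in KO islets, the most abundant of the lists in every library. Acinar markers, genes of digestive enzymes from the exocrine pancreas, summed to 427 to 873 RPM in controls and 1785 to 10927 in KO islets, with KO 2 and KO 3 highest. Markers of the other endocrine cells (alpha, delta and PP) summed to 4217 to 4398 RPM in controls and 4138 to 9308 in KO islets. Of these 8 markers 8 were higher on average and 0 passed, by the test described below. Control 2 stood apart in stellate cell and fibroblast markers, at 165 RPM against 75.5 in Control 1 and 69.9 to 85.1 in KO islets. The column headers of KO 1 and KO 2 end in f and those of the other 5 libraries in m. The labels do not say whether mice shared a litter or a day, so p-values measure only the spread between these libraries.

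The family is scattered over the genome, with a cluster on chromosome 11 (GRCm38). There Abca8b (109932190 to 109995845), Abca8a (110025634 to 110095978), Abca9 (110100749 to 110168196) and Abca5 (110269369 to 110337716) lie on the minus strand, with Abca6, no member, between Abca9 and Abca5. Abca12 (chromosome 1, 71242276 to 71414910) and Abca1 (chromosome 4, 53030787 to 53159895) are also on the minus strand. Abca2 (chromosome 2, 25428703 to 25448540), Abca3 (chromosome 17, 24351950 to 24410201), Abca7 (chromosome 10, 79996494 to 80015572) and Abca13 (chromosome 11, 9191942 to 9684259) are on the plus strand. In GENCODE M21 the longest coding transcripts have 32 exons in Abca3, 39 in Abca5, Abca8a, Abca8b and Abca9, 53 in Abca12 and 62 in Abca13.

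Most stretches of 50 bases in the member transcripts occurred in no other gene. Abca3 had the largest share in another gene, 921 of 6331 (14.5%), as given with its levels below. By coding sequence Abca8a and Abca8b were the closest pair among the 13 compared. Their coding sequences, of 4860 bases each, shared 74.8% of aligned bases, while Abca1 and Abca12 shared 60.5%. The longest run in which Abca8a and Abca8b were identical was 97 bases. Of the 7374 windows of 50 bases in the Abca8b transcript, 181 also occurred in another gene on either strand, and of the 5568 in Abca8a, 105 did. A stretch of 60 coding bases inside the identical run fits both genes, so a read wholly within it cannot be assigned from its letters. The stretch is shown beside the same one of Abca9. It spans coding positions 1901 to 1960 of Abca8b, 1898 to 1957 of Abca8a and 1907 to 1966 of Abca9, from GENCODE M21 transcripts. Capitals mark the 16 bases at which Abca9 differs from Abca8b.
Abca8b: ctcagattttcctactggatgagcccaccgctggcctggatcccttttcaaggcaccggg
Abca8a: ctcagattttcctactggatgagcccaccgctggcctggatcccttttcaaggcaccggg
Abca9: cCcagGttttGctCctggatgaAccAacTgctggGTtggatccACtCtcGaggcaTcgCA

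The start regions of the genes differ in composition, and 5 of them are shown because they belong to the members the results turn on: Abca3 and Abca1 with high levels, Abca8b and Abca8a with lower levels in KO islets, and the deleted Abca12. Each runs from 250 bases before to 50 bases after the RefSeq gene start (GRCm38.p6). They lie at chr17:24351773-24352072 (plus strand), chr4:53159846-53160145, chr11:109995796-109996095, chr11:110095888-110096187 and chr1:71414861-71415160 (all minus strand). Capitals mark matches, on either strand, to 6 motifs: the GC box GGGCGG, the CCAAT box, the TATA box TATAAA, the E-box CACGTG, and a pair of LXR-type repeats (AGGTCA, 4 bases, AGGTCA; and GGTTA, 4 bases, CGGTCA). The second of these is the LXR element known from the Abca1 promoter. CACGTG is its own reverse complement and was counted once per place.
Abca3: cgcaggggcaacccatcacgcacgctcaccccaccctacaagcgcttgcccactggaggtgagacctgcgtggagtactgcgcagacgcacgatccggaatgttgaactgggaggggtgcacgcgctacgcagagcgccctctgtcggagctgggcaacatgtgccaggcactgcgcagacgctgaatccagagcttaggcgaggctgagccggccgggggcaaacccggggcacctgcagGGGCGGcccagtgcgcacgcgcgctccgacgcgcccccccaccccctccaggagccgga
Abca1: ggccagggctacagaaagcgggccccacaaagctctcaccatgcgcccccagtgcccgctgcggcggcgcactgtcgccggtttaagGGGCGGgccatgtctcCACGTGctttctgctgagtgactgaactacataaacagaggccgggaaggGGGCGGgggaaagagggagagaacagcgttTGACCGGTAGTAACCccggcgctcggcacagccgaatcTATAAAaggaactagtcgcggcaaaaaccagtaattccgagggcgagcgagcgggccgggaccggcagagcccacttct
Abca8b: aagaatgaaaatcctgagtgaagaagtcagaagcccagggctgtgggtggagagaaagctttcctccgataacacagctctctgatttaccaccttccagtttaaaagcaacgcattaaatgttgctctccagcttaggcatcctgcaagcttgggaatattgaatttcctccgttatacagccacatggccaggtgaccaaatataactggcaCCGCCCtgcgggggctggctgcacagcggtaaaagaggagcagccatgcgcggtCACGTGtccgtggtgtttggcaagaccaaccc
Abca8a: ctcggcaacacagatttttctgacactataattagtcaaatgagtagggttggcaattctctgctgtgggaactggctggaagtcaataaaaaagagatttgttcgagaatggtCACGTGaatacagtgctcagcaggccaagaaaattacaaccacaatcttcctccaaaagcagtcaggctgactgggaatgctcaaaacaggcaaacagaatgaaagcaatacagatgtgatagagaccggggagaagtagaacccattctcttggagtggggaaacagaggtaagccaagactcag
Abca12: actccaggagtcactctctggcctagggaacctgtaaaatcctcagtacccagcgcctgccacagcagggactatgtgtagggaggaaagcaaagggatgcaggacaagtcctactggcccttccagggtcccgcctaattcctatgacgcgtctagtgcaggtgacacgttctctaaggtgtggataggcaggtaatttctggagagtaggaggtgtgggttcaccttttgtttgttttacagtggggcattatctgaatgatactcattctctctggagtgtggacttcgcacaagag

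The Abca1 region held the LXR element on the opposite strand, 67 bases before the start, beside 2 GC boxes, an E-box and a TATA box. Because the element is known from the Abca1 promoter, its match there was fixed in advance. Its letters occurred in 4 of 32851 RefSeq promoters, and those of the other repeat in 5. A match is a description of letters and not a binding site. GC boxes were found in 35.66% of promoters, CCAAT boxes in 37.41%, TATA boxes in 13.62% and E-boxes in 7.15%. Abca8a and Abca8b each held 1 E-box, at different positions, and the Abca12 and Abca9 regions held none of the 6 motifs. CpG pairs numbered 26 in Abca1, 26 in Abca2, 29 in Abca3, 40 in Abca5 and 19 in Abca7. They numbered 10 in Abca8b, 6 in Abca12 and Abca13, 4 in Abca8a and 2 in Abca9, against a median of 7 over all promoters. The 5 members with 19 or more CpG pairs were the 5 with the highest levels per length, described next. Among the family genes outside the 10, Abca14 (22) and Abca17 (21) had many CpG pairs and few reads.

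Abca12, the targeted gene, had 0 reads in all 7 libraries, in both controls as in the KO mice. The deletion could thus not be checked from RNA. A count of 0 allows up to 3 reads, which is 0.0696 to 0.125 RPM by library and covers counting error only. Per kb of merged exons, Abca1 stood at least 1053-fold and Abca3 at least 1816-fold above that limit in every library. Few genes of this length had 0 reads. Of 440 protein-coding genes with merged exons at least as long, 21 (4.77%) had 0 reads in all libraries, while 20.5% of all 21470 protein-coding genes did. The gene next to it on the right, Atic, stood at 29.5 to 31.9 RPM, and Bard1, on the left, at 0.125 to 0.392.

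Levels between genes are compared as RPM per kb of merged exons (GENCODE M21), as the mean of 7 libraries with the SD between them. Within the family, islets expressed 5 members at the highest levels, 1 at an intermediate level and 4 at or near 0. Abca3, which moves phospholipid into the lamellar bodies of lung type II cells, was highest at 17.8 ± 1.67 (n = 7). Abca2, an endosomal and lysosomal transporter abundant in oligodendrocytes, stood at 10.1 ± 0.826 and Abca7, a phospholipid transporter linked to phagocytosis, at 9.86 ± 0.709. Abca5, another lysosomal transporter, stood at 8.69 ± 0.532 and Abca1 at 8.46 ± 0.532. Abca8b, whose human counterpart ABCA8 takes part in cholesterol efflux, stood at 1.62 ± 0.369.

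Abca3 was above Abca2 in 7 of 7 libraries without overlap of their ranges, by 1.77-fold. The next 4 did not separate cleanly. Abca2 was above Abca7 in 4 of 7 libraries and Abca5 above Abca1 in 4 of 7. Abca7 was above Abca5 in 7 of 7, though their ranges overlapped. A gap of 5.24-fold followed between Abca1 and Abca8b, and one of 23.4-fold between Abca8b and its neighbour Abca8a, both without overlap. Abca8a stood at 0.0690 ± 0.0236, Abca9 at 0.0241 ± 0.0155 and Abca13, the longest member, at 0.003425 ± 0.00385, with Abca12 at 0. With the longest transcript or the coding sequence as the length, Abca3 stayed first and the last 5 places stayed the same, but Abca5 moved to second place.

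**Figure D1:**
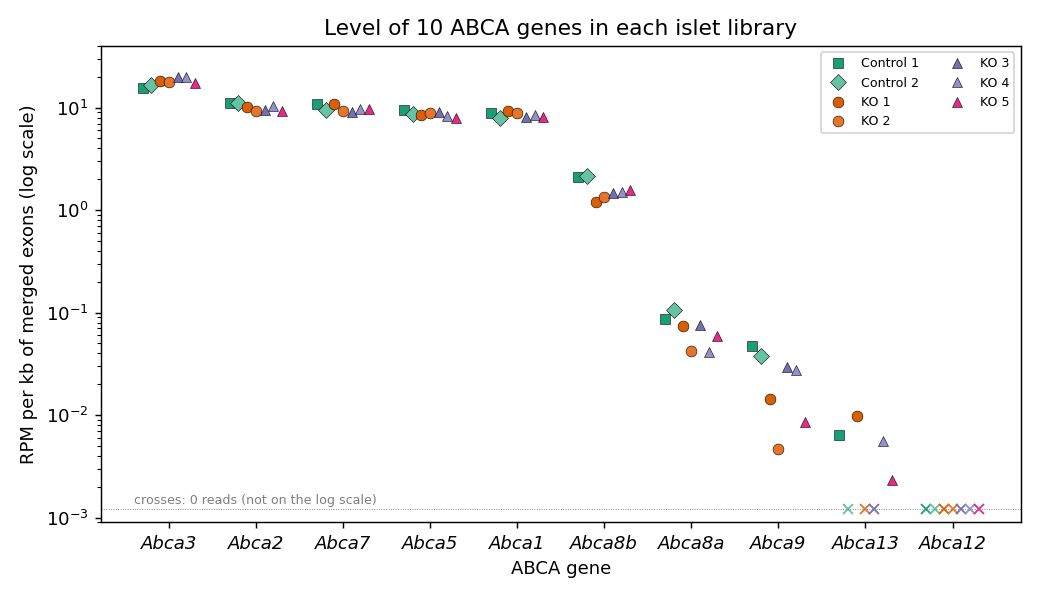
RPM per kb of merged exons on a log scale for the 10 ABCA genes, with 1 symbol per library (squares and diamonds, controls; circles, KO libraries with f in the header; triangles, other KO libraries) and crosses for 0 reads. The 5 genes from Abca3 to Abca1 lie between 7.84 and 19.9 in all libraries, Abca8b between 1.21 and 2.16, and Abca12 has crosses only.

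The summed level of the family did not separate the groups. The 10 genes summed to 529 and 511 RPM in Control 1 and Control 2 and to 528, 508, 525.8, 533 and 490.5 in KO 1 to KO 5, and the groups overlapped. The 5 highest members took 96.7% to 98.2% of these reads in each library.

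No member passed in the comparison of KO with control islets. The test was limma on log2(RPM + 1), fitted over 16212 genes with at least 10 reads at the median depth (0.366 RPM) in 2 or more libraries, with Benjamini-Hochberg adjustment over all of them and a threshold of 0.05. Over all genes 10 passed, or 0.0617% (0.0432% higher and 0.0185% lower). Of the 10 members 7 were tested and 0 passed, while Abca12, Abca9 and Abca13 had too few reads. With limma voom on the recovered reads 0 passed as well. At an unadjusted p under 0.05 by limma there were 3 members, 1 higher and 2 lower, where 10.8% of all genes reached that level (4.64% higher and 6.16% lower). In 4 of the 7 the groups did not overlap, with Abca3 higher and Abca2, Abca8a and Abca8b lower. Over all genes tested 15.2% did not overlap, 6.75% higher and 8.41% lower. The median log2 fold change was -0.10 over the 7 members and -0.01 over all genes tested.

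**Figure D2:**
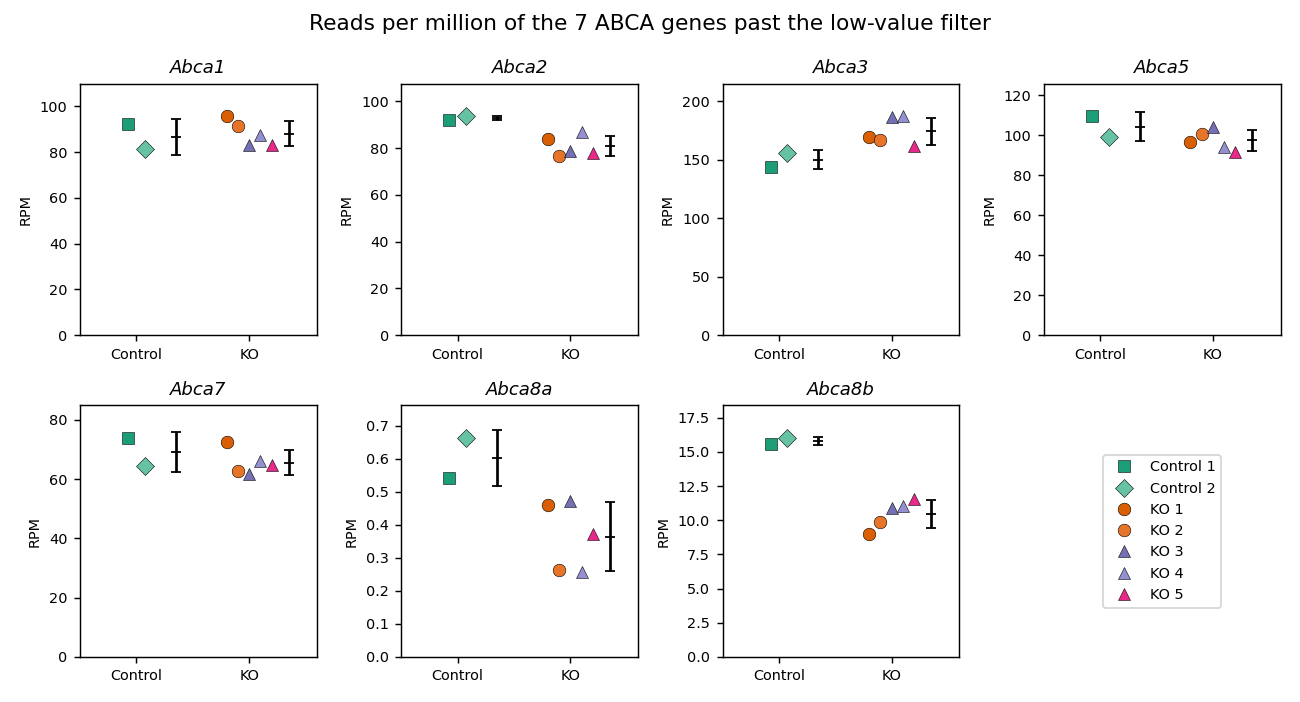
RPM of the 7 tested ABCA genes by library, with axes from 0, symbols per library as in the legend and bars for the mean and SD of each group. Abca8b, Abca8a and Abca2 are below both controls in each KO library and Abca3 is above both, while Abca1, Abca5 and Abca7 overlap.

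Among the exporters of cholesterol and phospholipid, Abca1 did not differ detectably. It stood at 92.4 and 81.2 RPM in Control 1 and Control 2, and at 95.6, 91.3, 83.04, 87.4 and 83.03 in KO 1 to KO 5. The 5 KO values all fell between or just above the controls, with KO 1 alone beyond Control 1. The means were 86.8 ± 7.87 (SD, n = 2) and 88.1 ± 5.43 (SD, n = 5), with a log2 fold change of 0.02 (SE 0.08; adjusted p = 0.9503 by limma). The 95% interval of the fold ran from 0.901 to 1.14, not adjusted for the number of genes. The controls differed by more than the groups did, since Control 2 was at 0.880 of Control 1. The sign of so small a difference changed to negative without Control 2 (-0.07) and without KO 1 (-0.01).

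Abca7 also overlapped between groups. It stood at 73.8 and 64.4 RPM in the controls and at 72.7, 62.7, 61.7, 65.98 and 64.8 in KO 1 to KO 5. Control 1 and KO 1 were the higher libraries of their groups, and the others lay close together. The log2 fold change was -0.07 (SE 0.08; adjusted p = 0.806 by limma), with a 95% interval of the fold from 0.841 to 1.07. Without Control 1 it was 0.02.

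Of the lysosomal members, Abca2 was lower in KO islets in each library, by a small amount. It stood at 92.3 and 93.6 RPM in Control 1 and Control 2, and at 84.0, 76.8, 78.9, 87.0 and 77.8 in KO 1 to KO 5. The highest KO library, KO 4, lay below both controls, which differed little from each other. The means were 92.9 ± 0.953 (n = 2) and 80.9 ± 4.39 (n = 5), a log2 fold change of -0.20 (SE 0.07) that did not pass (unadjusted p = 0.0138, adjusted p = 0.318 by limma). With the acinar marker level as a covariate it was -0.10. Abca5 stood at 109 and 99.2 RPM in the controls and at 96.8, 100.9, 104, 94.1 and 91.5 in KO 1 to KO 5. Its groups overlapped, and its log2 fold change was -0.10 (SE 0.07; adjusted p = 0.679 by limma), with -0.03 without Control 1 and -0.17 without Control 2.

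Abca3, the surfactant phospholipid transporter and the most abundant member per length, was the only tested member whose KO libraries all lay above both controls. It stood at 144 and 156 RPM in Control 1 and Control 2, and at 169, 167, 187, 187 and 161 in KO 1 to KO 5. The lowest KO library, KO 5, was close to Control 2. The means were 150 ± 8.10 (n = 2) and 174 ± 11.9 (n = 5), with a log2 fold change of 0.21 (SE 0.08) that did not pass (unadjusted p = 0.0171, adjusted p = 0.336 by limma). The 95% interval of the fold ran from 1.03 to 1.30, not adjusted for the number of genes.

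An antisense transcript at Abca3 was also higher in KO islets. D330041H03Rik (24404649 to 24414542, minus strand) overlaps exons at the 3′ end of Abca3 and stood at 21.1 and 23.8 RPM in controls. In KO 1 to KO 5 it stood at 30.5, 28.9, 29.3, 29.7 and 27.6, above both controls in each (log2 fold change 0.37, SE 0.08; adjusted p = 0.116 by limma). The library kit keeps strand, but whether counting used strand is not given in the sources used here, so reads of this pair may not have been told apart. Of 6331 windows of 50 bases in the Abca3 transcript, 921 also occurred in another gene on either strand. The part of the antisense transcript in the Abca3 difference was not tested. The gene on the other side, Abca17, lies 920 bases from Abca3 on the opposite strand and had at most 2 reads in any library.

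**Figure D3:**
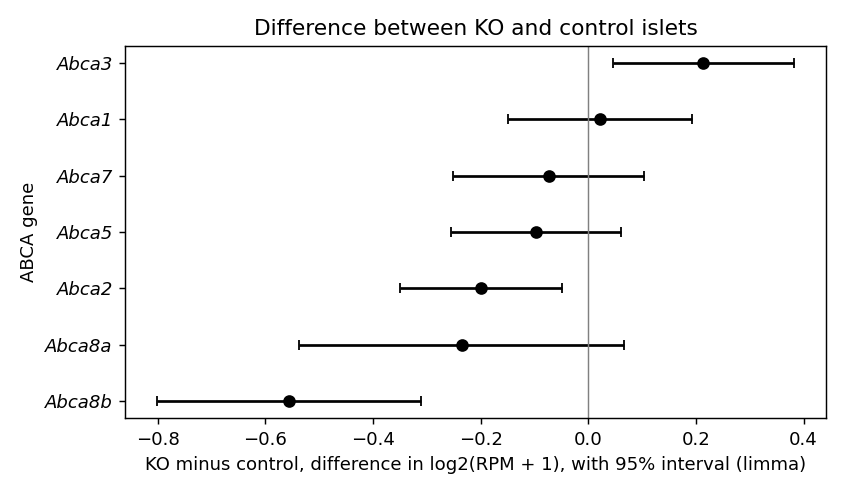
Difference between KO and control islets in log2(RPM + 1) for the 7 tested ABCA genes, with points for limma's estimate and bars for its 95% interval, not adjusted for the number of genes. The estimates run from -0.56 for Abca8b to 0.21 for Abca3, and the interval of Abca1 (-0.15 to 0.19) spans 0.

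Among the 7 tested members Abca8b had the largest log2(RPM + 1) difference, while the low-count Abca8a and Abca9 had lower ratios of KO over control in RPM (0.605 and 0.401, against 0.662 for Abca8b). It stood at 15.6 and 16.0 RPM in Control 1 and Control 2, and at 8.96, 9.88, 10.9, 11.03 and 11.5 in KO 1 to KO 5. All 5 KO libraries were well below the controls, and the controls were nearly equal. The means were 15.8 ± 0.290 (n = 2) and 10.5 ± 1.04 (n = 5), or 66.2% of the control mean. The log2 fold change of -0.56 (SE 0.11) did not pass over all genes (unadjusted p = 0.000333, adjusted p = 0.0895 by limma). In the authors' deposited table of 136 selected genes Abca8b is the only family member, with a fold of control over KO of 1.52 and a corrected p-value of 0.00949.

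Within the KO group the libraries marked f, at 8.96 and 9.88 RPM, were below those marked m, at 10.9 to 11.5. Among the libraries marked m alone the log2 fold change was -0.47 (SE 0.11; adjusted p = 0.200 by limma), a setting chosen after seeing the data. The overlapping antisense gene Gm11697 stood at 0.334 to 0.742 RPM in all libraries, far below Abca8b.

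Abca8a, the neighbour of Abca8b, and Abca9, the gene beyond it, were also lower in KO islets, from few reads. Abca8a had 13 and 22 reads in Control 1 and Control 2 (0.543 and 0.663 RPM) and 12, 7, 18, 7 and 16 in KO 1 to KO 5 (0.460, 0.263, 0.473, 0.256 and 0.371 RPM). The groups did not overlap, and the KO mean was 60.5% of the control mean. The log2 fold change was -0.23 (SE 0.14; adjusted p = 0.585 by limma), a scale on which the change of so low a gene is understated. Abca8b stood 23.4-fold above Abca8a per kb and the 2 share some sequence, so reads of Abca8b may be counted in Abca8a. The size of that share was not tested. Abca9 had 9 and 10 reads in the controls (0.376 and 0.301 RPM) and 3, 1, 9, 6 and 3 in KO 1 to KO 5 (0.115, 0.0376, 0.237, 0.220 and 0.0696 RPM). It was not tested. Pooled over libraries, 19 control and 22 KO reads give a ratio of KO over control of 0.410, with an exact 95% counting interval of 0.212 to 0.801 that covers counting error only.

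At the other end of the chromosome 11 cluster the groups overlapped. Abca6, between Abca9 and Abca5, had 4 to 12 reads a library and overlapping groups (0.293 and 0.362 RPM in controls, 0.131 to 0.421 in KO islets). Its pooled ratio of KO over control was 0.709, with an exact 95% counting interval of 0.398 to 1.30 that spans both 1 and the Abca8b ratio of 0.662. A difference between Abca6 and its neighbours was not tested. Abca5, the next gene, was expressed at 8.69 RPM per kb and overlapped between groups as given above. The gap between Abca8b and Abca8a is 29788 bases, and between Abca6 and Abca5 17592.

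Markers of vascular cells were, like Abca8b, lower in KO islets, but not alike in the controls. The 13 endothelial markers, all tested and none at 0, summed to 237 and 296 RPM in controls and 153 to 217 in KO islets. On average 13 of 13 were lower, and 0 passed. At an unadjusted p under 0.05 by limma 11 were lower, where 6.16% of all genes tested were. In 5 the groups did not overlap with KO lower, where 8.41% of all genes tested did so. The 8 pericyte markers summed to 37.5 and 65.1 RPM in controls and 26.9 to 34.4 in KO islets, with 8 of 8 lower and 0 passing. Of these 8, 4 were lower at an unadjusted p under 0.05 by limma, and 3 did not overlap between groups. As a percentage of the control mean, KO 1 to KO 5 stood at 56.7, 62.5, 69.1, 69.8 and 73.1 for Abca8b and at 63.0, 57.6, 72.1, 81.5 and 79.8 for the endothelial sum. Their part in the Abca8b difference was not tested. In islet RNA, fewer cells of a type and less RNA per cell cannot be told apart.

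Fibroblast and stellate cell markers were high in Control 2 alone. Of 15 markers 12 were tested, 9 were lower on average and 0 passed, and none was at 0 in all libraries. At an unadjusted p under 0.05 by limma 5 were lower, where 6.16% of all genes tested were. In 2 the groups did not overlap with KO lower, where 8.41% of all genes tested did so. Control 1, at 75.5 RPM, lay within the KO range of 69.9 to 85.1. Abca8b was at 15.6 RPM in Control 1 and 16.0 in Control 2, where these markers reached 165. Each of these is 1 mouse, and the part of these markers in the Abca8b difference was not tested. Macrophage markers summed to 53.9 and 90.6 RPM in controls and 48.1 to 61.2 in KO islets.

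**Figure D4:**
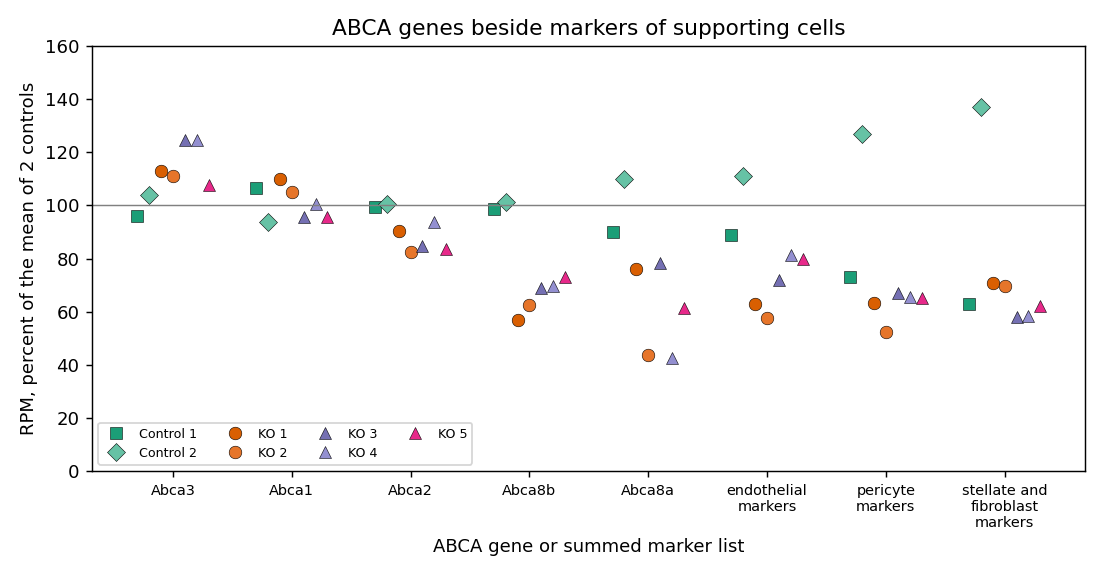
RPM as a percentage of the mean of the 2 controls for 5 ABCA genes and for the summed markers of 3 cell types, with 1 symbol per library. The KO libraries lie at 56.7% to 73.1% for Abca8b and at 57.6% to 81.5% for endothelial markers, and Control 2 reaches 137% for stellate and fibroblast markers.

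Genes whose pattern over the 7 libraries was most like that of a member were listed by the mean absolute difference of their deviations in log2(RPM + 1). For Abca8b they were Abat, which breaks down the transmitter GABA (0.0483), Tmem130 (0.0560) and Ppp1r3d, a glycogen-targeting phosphatase subunit (0.0572), among 13763 genes. For Abca1, which varied little, they were Prpf4b, Nap1l4 and Hnrnpu, at 0.0166 to 0.0178. For Abca8a they were Pnmal1, Fmo5 and Tnpo1 (0.0340 to 0.0358), and for Abca9 F8, Ubr3 and Clcn5 (0.0199 to 0.0276). Both members lay below 1 RPM, where this scale shrinks deviations, so many genes come close to them. Within a looser distance of 0.1 lay 37.7% of genes for Abca1, 7.16% for Abca8a, 9.07% for Abca9 and 0.407% for Abca8b.

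Abca13 and the rest of the family were close to silent apart from Abca4. Abca13 had 0 to 5 reads a library. Abca4, which clears retinal from photoreceptor discs, stood at 4.35 and 2.17 RPM in Control 1 and Control 2 and at 4.17, 5.22, 2.84, 3.85 and 4.20 in KO 1 to KO 5. The controls spanned much of the KO range, and the log2 fold change was 0.28 (SE 0.22; adjusted p = 0.694 by limma). Abca14, Abca15, Abca16 and Abca17, known in mouse mainly from testis, stood at 0.0789 to 0.417 RPM for Abca14 and at 0.125 RPM or less for the other three.

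Other lipid transporters and the genes around ABCA1 and ABCA12 had no member past the threshold. Of 11 tested ABCG, ABCD and ABCB transporters, 3 were higher, 8 lower and 0 passed (median log2 fold change -0.08). In 18.2% of these 11 the groups did not overlap, against 15.2% of all genes tested. Abcb4, the phosphatidylcholine exporter of bile, stood at 7.97 ± 0.368 RPM in controls and 6.16 ± 0.423 in KO islets, lower in 5 of 5 libraries (adjusted p = 0.339 by limma). Abcd2, a peroxisomal fatty acid transporter, was lower in 5 of 5 as well, at 0.852 ± 0.0962 and 0.605 ± 0.126 RPM. Abcd3 stood at 108 ± 5.51 and 99.2 ± 4.83 RPM and Abcg3 at 0.502 ± 0.355 and 0.236 ± 0.113, both with overlapping groups.

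LXR targets and sterol efflux genes split evenly, with 9 higher and 8 lower of 17 tested, 0 passing and a median of 0.00. In 11.8% of these 17 the groups did not overlap, near the 15.2% over all genes tested. Lipoprotein lipase (Lpl) was at 41.7 ± 9.68 RPM in controls and 57.4 ± 6.07 in KO islets (log2 fold change 0.47; adjusted p = 0.193 by limma), with KO 5, at 48.1, below Control 1. Apolipoprotein E (Apoe) stood at 54.2 ± 6.94 and 42.04 ± 7.71 RPM, and the LXR-induced phosphodiesterase gene Smpdl3a at 17.8 ± 1.61 and 14.8 ± 1.42, both lower in 5 of 5 KO libraries (adjusted p = 0.422 and 0.433 by limma). The desaturase gene Scd1 stood at 4.59 ± 1.99 and 3.13 ± 0.758 RPM with overlapping groups.

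Of 11 ABCA1 partners and regulators, 3 were higher, 8 lower and 0 passed (median -0.10). Arhgef12, which encodes a guanine nucleotide exchange factor that binds ABCA1, stood at 189.5 ± 28.2 and 158 ± 11.3 RPM, Lrp1 at 46.0 ± 1.75 and 38.7 ± 5.66, and Prkaca at 63.3 ± 3.97 and 58.1 ± 3.30. Their groups overlapped. Of 8 tested genes of the epidermal lipid barrier, 1 was higher, 7 lower and 0 passed (median -0.05). In 12.5% of these 8 the groups did not overlap, near the 15.2% over all genes tested. Ugcg, the synthase that makes the glucosylceramide carried by ABCA12, stood at 23.5 and 23.3 RPM in the controls and at 17.8, 19.4, 18.0, 18.0 and 19.8 in KO 1 to KO 5. All KO libraries were below both controls (log2 fold change -0.32, SE 0.08; adjusted p = 0.180 by limma). Aloxe3 stood at 1.28 ± 0.153 and 1.03 ± 0.532 RPM and Elovl4 at 3.74 ± 0.510 and 3.51 ± 0.523, both overlapping.

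The lamellar body list, the organelle that ABCA3 fills in the lung, had 4 of 8 genes tested, 4 lower and 0 passing (median -0.17). In 25% of these 4 the groups did not overlap, against 15.2% of all genes tested. The remodelling enzyme gene Lpcat1 stood at 15.5 ± 1.68 and 12.8 ± 0.841 RPM, lower in 5 of 5 KO libraries (adjusted p = 0.397 by limma). Surfactant protein D (Sftpd) stood at 87.5 ± 1.90 and 83.0 ± 17.7 RPM, and Napsa and Ctsh at 1.18 ± 0.843 and 0.781 ± 0.177 and at 5.47 ± 1.94 and 5.18 ± 0.481, with overlapping groups. The median over all genes tested, for comparison with these lists, was -0.01.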

How the data were processed

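RNA was sequenced from polyA-selected, directional libraries of whole islets, per the labels' protocols. HISAT2, DESeq2 and the build GRCm38 appear in the submitters' processing notes, with no roles. Which program counted reads, and whether by strand, is not stated there.

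Log2 values per gene are what the authors deposited. They proved to be log2 of depth-scaled reads, in reads per 1000000 reads of implied depth (RPM), since 99.95% to 99.97% of a library's values were whole multiples of its smallest step (tolerance 0.02). A gene without reads is stored at 0.9 of a step and was set to 0. The authors' deposited table of 136 genes gives a fold (ratio) and a corrected p-value, with no test named.

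Groups came from the sample titles. Genes were tested with limma 3.58.1 in R 4.3.3 on log2(RPM + 1) with an intensity trend, KO against control, two-sided. The deposited values are normalised, so no count model was the main test. A fold on this scale understates changes of low genes. The fit was tested on simulated data.

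The 10 members and all lists were chosen with earlier results of these data known. Named genes follow a rule: all ABCA genes, up to 4 genes per related list by smallest unadjusted p, 3 most alike genes for Abca1, Abca8a, Abca8b and Abca9 (mean of at least 1 RPM), and the neighbours. Some genes the rule names are not reported here. Overlapping antisense genes were added after their values were seen. Promoters are RefSeq entries, found for 10 of 10 members. Alternatives covered pseudocounts, filters, scaling, voom, robust fitting, covariates, a replicate block and left-out libraries. Plots used matplotlib 3.10.9.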

Additional observations from a re-analysis of the deposited data

Results flagged for a closer look

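In 61 sets of KO values checked for a library far from the other 4, 4 had a gap above 0.71 of the range, and chance flags about 5% of sets. Abca15 had its only read in KO 5, at 0.0232 RPM. The pericyte marker sum was lowest in KO 2, at 26.9 RPM. The Schwann cell and neuron marker sum was highest in KO 1, at 28.2 RPM. Ctsh was lowest in KO 3, at 4.36 RPM. None of the 10 members had such a library.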

How the results depend on the processing

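No ABCA member passed in any of 20 alternatives. Abca8b kept its sign in all of them (log2 fold change -0.69 to -0.47, adjusted p 0.0515 to 0.585 by limma), as did Abca3 (0.16 to 0.27), Abca2 (-0.23 to -0.10), Abca5 (-0.27 with the acinar level as a covariate to -0.03) and Abca8a in the 19 that could test it (-0.74 with voom and -0.62 with a pseudocount of 0.1 RPM to -0.18, against -0.23). Abca1 turned to -0.036 with sex by header letter as a covariate, -0.018 with the acinar level as a covariate and -0.036 without KO 1 and KO 2 (a setting chosen after seeing the data), and ran from -0.070 to 0.11 with 1 library left out (-0.0087 without KO 1). Abca7 ran from -0.17 to 0.024 with 1 library left out. Of all genes, 10 passed, against 4 without a filter, 20 with median-of-ratios scaling, 42 with robust empirical Bayes, 3 with sex, 47 without KO 2 and KO 3, and 0 with the acinar level (1191 at an unadjusted p under 0.05; 10 by limma voom in the design without it). With 1 library left out the count ran from 2 (without Control 2 or KO 4) and 3 (without KO 3) to 127 (without Control 1); a lone control is assumed to vary like the KO group. The cause of these shifts was not tested. The shared numbers 1 and 2 do not pair the mice by the labels. Deviations of same-numbered libraries from their group means correlated at -0.10 and -0.24 across genes, which are not independent replicates. With only 2 controls, the control deviations mirror each other, so these values are not separate evidence and cannot decide on pairing. With the replicate block 11 genes passed and Abca8b was at -0.69 (adjusted p = 0.304). By the longest transcript or coding length 6 members stayed above 1 RPM per kb. Abca9, Abca12 and Abca13 are limited by depth, and Abca8a is left out by a filter of 1 RPM.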

Other observations

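The nearest listed genes on each side of the members were examined for changes along the chromosome. Of 13 such genes outside the family 8 were tested and 0 passed by limma, with 2 at an unadjusted p under 0.05 and 2 whose groups did not overlap, where 10.8% and 15.2% of all genes tested did so. Upp1, which encodes uridine phosphorylase 1 and lies beside the nearly silent Abca13, stood at 7.82 and 8.83 RPM in the controls and 9.996 to 12.6 in KO islets (log2 fold change 0.39, SE 0.11; adjusted p = 0.239 by limma). Paxx, a DNA repair gene beside Abca2, stood at 12.5 and 10.7 RPM in the controls and 13.1 to 14.2 in KO islets (adjusted p = 0.405 by limma), while Abca2 was lower in KO islets. Atic, beside Abca12, had a log2 fold change of 0.01 (SE 0.07).

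Both neighbours of Abca7 set Control 2 apart. Arhgap45, a GTPase-activating protein of blood cells, stood at 0.418 RPM in Control 1, 7.11 in Control 2 and 0.421 to 1.20 in KO islets. Cnn2, a calponin, stood at 2.38 and 8.74 RPM in the controls and 1.81 to 4.36 in KO islets. Abca7 itself, between them, was lower in Control 2, at 64.4 RPM, than in Control 1, at 73.8.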
